A study of Homo sapiens with 36 samples.

Results

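Heavy polysomal RNA of HCT116 colorectal cancer cells at day 1 (D1) of 5-fluorouracil (5-FU) was compared with heavy polysomal RNA taken before the drug (D0), over all 15891 genes of the deposited table. The comparison uses 6 of the study's 36 libraries, 3 at D1 and 3 at D0, one for each of the replicate letters A, B and C. The study followed HCT116 cells, an established human line, through 10 µM 5-FU given over 48 h and sampled them at D0, D1, D2, D7, D14 and D16. From each collection it sequenced cytoplasmic RNA and the pooled sucrose gradient fractions that held mRNA with more than 3 ribosomes, called the heavy fraction. The D1 cells were in 5-FU, inside the 48 h of exposure, and the D0 cells had been plated 48 h earlier and had received no drug. All cells of both groups received emetine, which holds ribosomes on mRNA, at 25 µg/ml for 10 min before harvest. Other libraries of the study used here are the 3 cytoplasmic libraries at D1 and the 3 at D0. No untreated culture collected at D1 is among the samples, so the drug and a further day in culture cannot be told apart.

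An mRNA that is being translated carries several ribosomes and sinks deep into a sucrose gradient, so the heavy fraction holds the mRNAs under active translation, each in proportion to both its abundance and its ribosome load. 5-FU is converted in cells into nucleotides that block thymidylate synthase and that are built into RNA and DNA. DNA and ribosome stress stabilise the transcription factor p53, which switches on genes of cell cycle arrest, repair and apoptosis, and amino acid or ER stress acts through the translational control of the transcription factor ATF4.

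The heavy libraries held 51661015, 50512603 and 50680007 assigned reads at D1 (A, B, C) and 48869481, 51815793 and 54509899 at D0, recovered from the deposited normalised counts. Over the 6 libraries, the first principal component carried 70.2% of the variance and separated D1 from D0, and the second, with 10.4%, set D1 replicates B and C apart. Deviations from the D1 mean followed GC content in opposite ways in these libraries (r = 0.37 across 15782 genes in B and -0.39 in C, genes not being independent replicates). The part of this in the results was not tested beyond the values below. Mitochondrially encoded genes took 2.92%, 3.93% and 2.18% of the reads at D1, against 1.41%, 1.72% and 2.13% at D0. Of 9 epithelial and intestinal marker genes, 6 were listed (EPCAM, CDH1, KRT8, KRT18, KRT19 and CDX2), with a summed normalised count of 374992 to 515544 at D1 and 361728 to 418253 at D0. CDX1, VIL1 and GPA33 had no entry in the table. Of 21 markers of other lineages 4 were listed (COL1A1, ITGAM, HBA1 and SYP), with a sum of 1178 to 1271 at D1 and 584 to 850 at D0. The highest D0 sum rests on HBA1, at 46.6, 60.8 and 360 in D0 A, B and C. The smallest value in the table was 1.00, so a missing entry does not show that a gene is absent from the cells.

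Levels below are the authors' normalised counts, which depend on transcript length, so they are compared between groups and not between genes. Differences are D1 minus D0 on the log2(value + 1) scale with their standard error. In bulk RNA, fewer cells of a kind and less RNA per cell cannot be told apart. The labels call the letters batches and do not state that they were separate cultures, so p-values measure the spread between these libraries.

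Between D1 and D0, 7444 of the 15891 genes (46.8%) passed limma's test at an adjusted p under 0.05, of which 3180 rose (20% of all genes) and 4264 fell (26.8%). The median over all genes was -0.06. The split between directions rests on the scaling. With each library scaled to the same total, the median moved up by 0.19 and 4915 genes rose and 2322 fell. Large changes were mostly upward: 868 genes rose at least 2-fold (5.46%) and 445 fell at least 2-fold (2.8%), 166 rose and 15 fell at least 4-fold, and 41 rose and 1 fell at least 8-fold. The D1 and D0 values did not overlap for 8720 genes (54.9%). Genes that rose at least 2-fold had a median D0 level of 90.9 normalised counts, and those that fell at least 2-fold had 137, against 769 over all genes.

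Among the largest rises, NECTIN4 (chr1:161070995-161089599 in GRCh38), an adhesion molecule of epithelial cells, had 1439, 1409 and 1143 normalised counts at D1 and 43.5, 34.3 and 16.6 at D0, a log2 difference of 5.45 ± 0.21 (SE, adjusted p = 5.93e-15). PTAFR, the receptor of platelet-activating factor, had 3069, 3043 and 2653 at D1 and 126, 99.1 and 89.9 at D0 (4.80 ± 0.16, adjusted p = 2.54e-16). LAMA3, the alpha chain of the epithelial basement membrane protein laminin-332, had 2049, 1708 and 1674 at D1 and 126, 84.3 and 99.7 at D0 (4.13 ± 0.13, adjusted p = 2.54e-16). For all 3 genes every D1 library was far above every D0 library. Among the other genes with the largest rises, GRHL3, a transcription factor of epithelial differentiation, had 880, 1233 and 1054 at D1 against 62.8, 86.3 and 63.5 at D0, a difference of 3.88. EBI3, a subunit of the cytokine interleukin-27, had 329, 354 and 256 at D1 against 17.2, 19.6 and 9.78 at D0 (4.29). SNAI2, the transcriptional repressor Slug, had 118, 92.9 and 144 at D1 against 5.06, 3.92 and 9.78 at D0 (4.10). KLHDC7A rose by 4.64, HMCN2 (hemicentin 2, an extracellular matrix protein) by 4.33, CEL (bile salt-stimulated lipase) by 4.05, ELAPOR1 by 3.97 and ITGAM (an integrin alpha chain of myeloid cells) by 3.99. LGALS7B rose by 4.98, but it has a near-identical copy and the reads cannot be assigned to one of them with certainty. The table has no entry for the leukocyte marker PTPRC, which does not show that it is absent.

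Among the largest falls, RPL22L1, a paralog of the ribosomal protein RPL22, had 843, 920 and 922 normalised counts at D1 and 5357, 6018 and 5800 at D0 (-2.68 ± 0.11, adjusted p = 1.37e-14). PCK2, the mitochondrial phosphoenolpyruvate carboxykinase, had 1125, 1404 and 1143 at D1 and 5924, 7688 and 7902 at D0 (-2.55 ± 0.20, adjusted p = 7.76e-10). In both, all D1 libraries were below all D0 libraries. PLK1, a kinase that drives entry into and exit from mitosis, had 5255, 6474 and 6015 at D1 and 24450, 27283 and 29139 at D0 (-2.19 ± 0.09, adjusted p = 1.09e-14). All PLK1 libraries at D1 held less than the lowest D0 library. PIF1, a DNA helicase, had 127, 112 and 98.0 at D1 against 611, 598 and 683 at D0 (-2.49). Other genes with large falls were ADM5 (-2.39), AKR1E2, an aldo-keto reductase (-2.02), DEPDC1 (-1.70) and CDCA7 (-1.69).

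**Figure D1:**
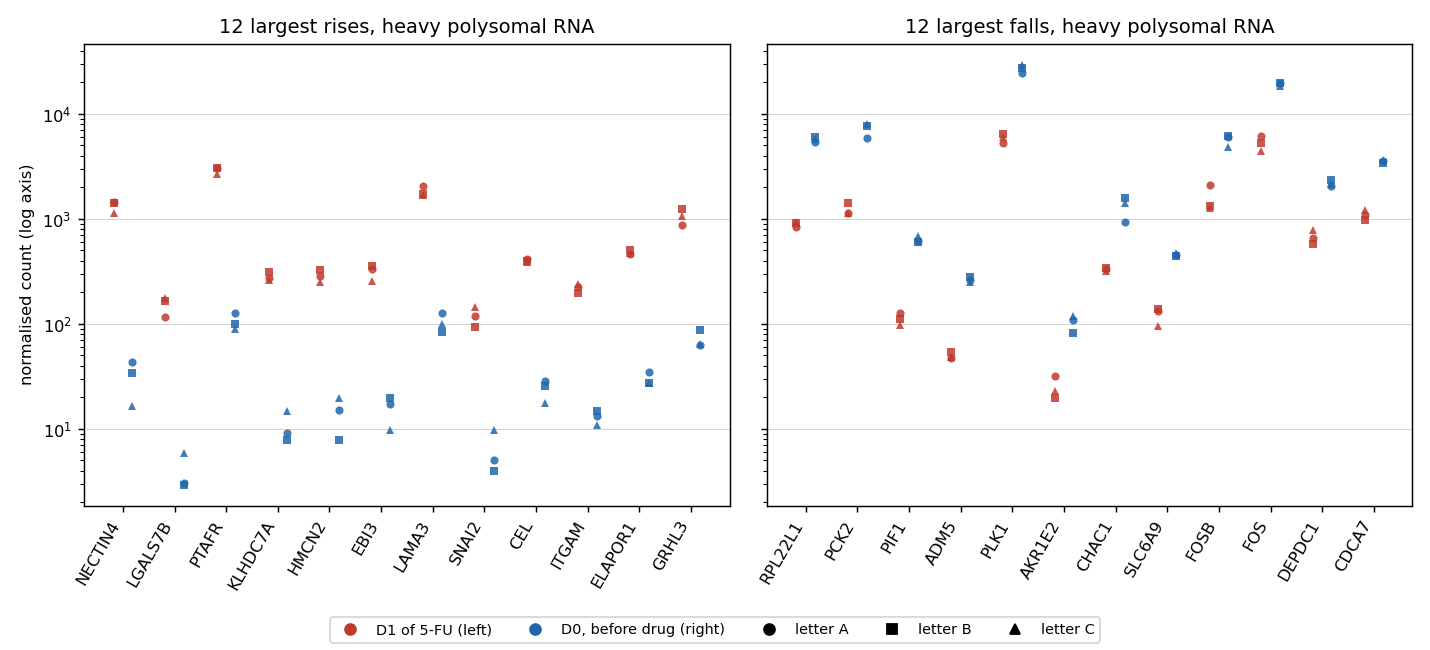
Normalised counts (log axis) in the 3 heavy D1 libraries and the 3 heavy D0 libraries for the protein-coding genes with the largest rises and falls; each point is a library. The D1 and D0 points of each gene lie apart, from NECTIN4 (5.45 on the log2 scale) to RPL22L1 (-2.68).

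The p53 target genes rose almost as a whole. Of 43 listed genes of the set 41 rose and 1 fell, with a median of 1.71 against -0.06 over all genes, and 36 rose at least 2-fold. Their summed normalised count was 540644 to 606025 at D1 and 133804 to 136642 at D0. The set was known to respond in these data when it was chosen, so its count is a description. CDKN1A, which encodes the CDK inhibitor p21, had 95256, 87552 and 83395 at D1 and 10791, 10347 and 9600 at D0 (3.11 ± 0.09, adjusted p = 9.93e-17). MDM2, the ubiquitin ligase that degrades p53, had 17839, 14906 and 15455 at D1 and 2612, 2241 and 2330 at D0 (2.74 ± 0.11, adjusted p = 8.5e-15). In neither gene did the groups come near each other.

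By role, all 8 arrest genes rose, with SFN (14-3-3 sigma) at 119880, 149570 and 143860 at D1 against 19070, 20905 and 20418 at D0 (2.77), BTG2 at 2.50 and PLK3 at 2.22. All 5 feedback genes rose, among them TP53INP1 (2.88), PHLDA3, an AKT inhibitor (2.42), and the phosphatase PPM1D (1.99). Of the 7 genes of metabolism and stress hormones, TP53I3 had 10890, 11997 and 10851 at D1 against 963, 924 and 808 at D0 (3.65). GDF15, a secreted stress cytokine, had 58209, 83251 and 48721 at D1 against 5962, 7190 and 5904 at D0 (3.29). SESN1 rose by 2.30 and SESN2 by 0.61, both inhibitors of mTORC1. All 7 repair genes rose, with DDB2 (1.99) and XPC (1.22) of nucleotide excision repair, POLH (1.68) of translesion synthesis, and RRM2B, the p53-induced subunit of ribonucleotide reductase. RRM2B had 6851, 5693 and 9409 at D1 and 2141, 2024 and 2092 at D0 (1.78 ± 0.13, adjusted p = 3.66e-10). Every D1 library was above every D0 library, with replicate C highest.

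The apoptosis genes of the p53 set followed, with 9 of 10 higher. The death receptor FAS had 1577, 1504 and 1392 normalised counts at D1 and 160, 186 and 196 at D0, a difference of 3.04, and the decoy receptor TNFRSF10C had 412, 445 and 307 at D1 and 21.3, 42.2 and 28.3 at D0 (3.66). The other decoy receptor, TNFRSF10D, did not pass, with 3096, 3250 and 1977 at D1 and 2305, 2112 and 1991 at D0 (0.35, adjusted p = 0.0571), and D1 replicate C lay below the lowest D0 library. PMAIP1 (NOXA) rose by 2.00, BBC3 (PUMA) by 1.59 and BAX by 1.5. In the wider apoptosis list of 32 genes, which shares 6 genes with the p53 set, 19 rose and 5 fell, with a median of 0.42. Genes that restrain apoptosis were among those that rose: BIRC3 (2.09), CFLAR (0.89), BCL2L1 (0.83) and MCL1 (0.31). BCL2, XIAP and BCL2L2 had differences between -0.23 and -0.22 that did not pass. HRK, a pro-apoptotic BH3-only gene, fell by 0.88.

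The p53 consensus was looked for in the 250 bases before the RefSeq transcription start of 10731 genes, as a 20-base palindrome without spacer, with its C and G core letters intact and at most 2 other mismatches, which is the same on both strands. It was found in 20 promoters (0.186%), of which 11 genes rose (55.0%), 2 fell (10.0%) and 7 did not pass. Of the genes without it 21.3% rose and 28.3% fell. Of 35 promoters of the p53 set AEN alone held it, and sites outside the window were not searched. The promoters of 3 genes that hold it are printed because they are the matches with a gene of the set (AEN, an apoptosis nuclease) and with the largest rises (PTCHD4 and PURPL, a long noncoding RNA, both singled out after their values were seen). Positions in GRCh38.p14 are chr15:88621140-88621339 (plus strand) for AEN, chr6:48111198-48111447 (minus strand) for PTCHD4 and chr5:27472042-27472291 (plus strand) for PURPL, and capitals mark the match.
AEN: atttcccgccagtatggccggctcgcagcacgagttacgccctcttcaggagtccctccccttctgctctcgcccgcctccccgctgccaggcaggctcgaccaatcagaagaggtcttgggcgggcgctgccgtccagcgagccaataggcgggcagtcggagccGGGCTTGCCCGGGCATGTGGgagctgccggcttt
PTCHD4: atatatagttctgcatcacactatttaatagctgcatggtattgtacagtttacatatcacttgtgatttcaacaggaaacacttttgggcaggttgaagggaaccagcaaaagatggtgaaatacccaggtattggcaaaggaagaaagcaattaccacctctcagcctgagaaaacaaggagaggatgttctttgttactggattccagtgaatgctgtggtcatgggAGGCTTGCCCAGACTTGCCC
PURPL: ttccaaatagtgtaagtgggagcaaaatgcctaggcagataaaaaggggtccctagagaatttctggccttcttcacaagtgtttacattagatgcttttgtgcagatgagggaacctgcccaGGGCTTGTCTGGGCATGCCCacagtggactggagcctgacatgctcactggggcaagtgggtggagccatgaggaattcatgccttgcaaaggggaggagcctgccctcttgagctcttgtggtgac
AEN had 10336, 11035 and 10007 normalised counts at D1 against 5144, 5288 and 5416 at D0 (0.98 ± 0.08, adjusted p = 3.57e-09). PTCHD4 had 274, 249 and 307 at D1 against 31.4, 23.5 and 29.3 at D0 (3.26 ± 0.17, adjusted p = 8.67e-13). PURPL had 26.1, 30.0 and 29.8 at D1 against 8.10, 3.92 and 3.91 at D0 (2.29 ± 0.24, adjusted p = 8.57e-08). The groups did not overlap in any of the 3 genes, and the PURPL values rest on few reads.

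**Figure D2:**
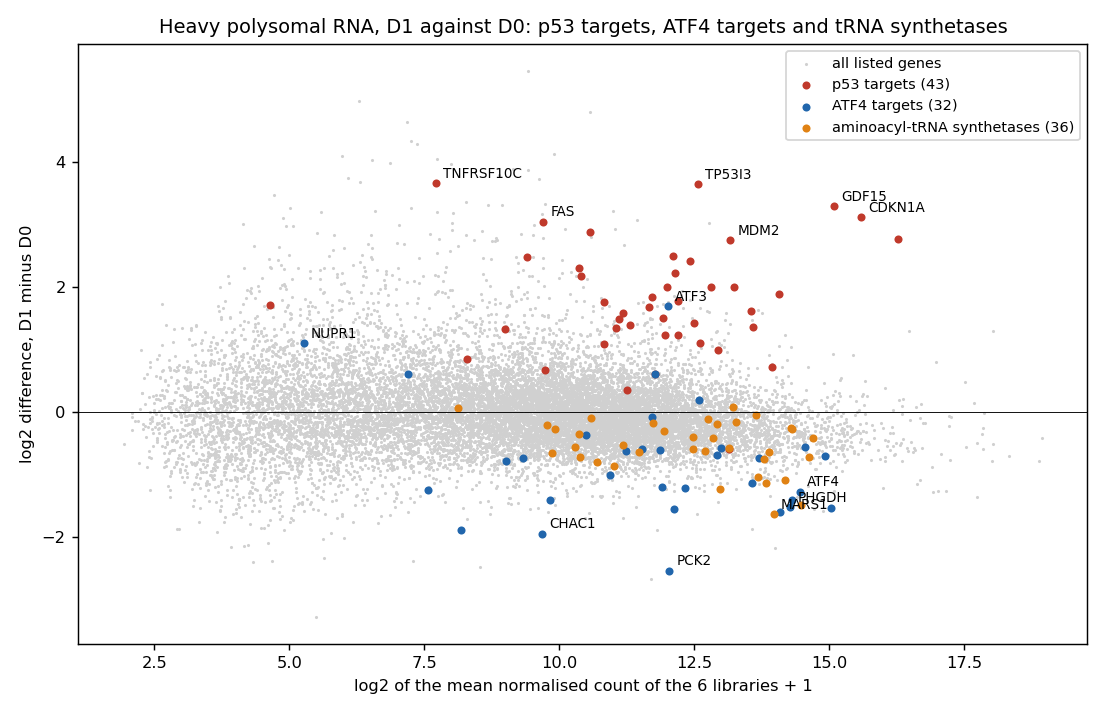
Log2 difference of heavy polysomal RNA, D1 minus D0 (vertical axis), against the log2 mean normalised count of the 6 libraries (horizontal axis), with all genes in grey and the p53 targets, ATF4 targets and aminoacyl-tRNA synthetases in colour; each point is a gene. Of the p53 genes 41 of 43 rose, whereas 26 of 32 ATF4 genes and 24 of 36 synthetases fell.

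ATF4 and most genes it controls were lower at D1. ATF4, the transcription factor of the integrated stress response, had 14746, 13021 and 11865 normalised counts at D1 and 30752, 33203 and 32092 at D0 (-1.28 ± 0.09, adjusted p = 1.21e-10), so the D1 values were all under the D0 values. Of 32 listed target genes, ATF4 included, 26 fell and 4 rose, with a median of -0.77 against -0.06 over all genes. Of those that fell, 15 fell at least 2-fold. With total-sum scaling the median was -0.57 and 25 fell and 5 rose.

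All 10 enzymes of amino acid and one-carbon synthesis in the set fell. In serine synthesis, PHGDH had 9649, 12672 and 8737 at D1 against 26478, 31309 and 30693 at D0 (-1.52), PSAT1 had 8261, 8550 and 8894 at D1 against 22665, 27864 and 28314 at D0 (-1.61), and PSPH fell by 0.63. PYCR1 of proline synthesis fell by 1.41. ASNS, asparagine synthetase, had 112, 113 and 110 at D1 against 255, 286 and 261 at D0 (-1.25). Its D1 libraries were all lower than D0. All 8 amino acid transporters fell as well, among them SLC6A9 (glycine, -1.90), SLC7A1 (cationic amino acids, -1.56), SLC7A5 (large neutral amino acids, -1.54) and SLC7A11 (cystine, -1.41). CHAC1, which degrades glutathione, had 332, 337 and 318 at D1 against 938, 1572 and 1414 at D0 (-1.96 ± 0.19, adjusted p = 2.01e-08), and D0 replicate A stood below the other D0 libraries. The genes of the set that rose were ATF3, DDIT3 (CHOP), SESN2 and NUPR1. ATF3, which also belongs to the immediate-early and p53-responsive genes, had 6671, 5979 and 6284 at D1 and 2026, 2068 and 1787 at D0 (1.69 ± 0.11, adjusted p = 7.45e-11). DDIT3 had 193, 174 and 163 at D1 and 95.2, 133 and 122 at D0 (0.60).

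Promoters of 3 of these genes are shown because they held the ATF4 composite motif in its shorter form and moved in opposite directions. The motif of a C/EBP and an ATF site was searched on both strands in the 250 bases before the start. As TGATGNAAT it was in 0.354% of the 10731 promoters and in 0 of 26 of the ATF4 set. The shorter TGATGNAA, searched after that result was seen, was in 1.26% of all promoters and in those of ATF3, CHAC1 and ASNS. Positions in GRCh38.p14 are chr15:40953221-40953470 (plus strand) for CHAC1, chr7:97872409-97872608 (minus strand) for ASNS and chr1:212565157-212565406 (plus strand) for ATF3, and capitals mark the match, which in CHAC1 lies on the opposite strand.
CHAC1: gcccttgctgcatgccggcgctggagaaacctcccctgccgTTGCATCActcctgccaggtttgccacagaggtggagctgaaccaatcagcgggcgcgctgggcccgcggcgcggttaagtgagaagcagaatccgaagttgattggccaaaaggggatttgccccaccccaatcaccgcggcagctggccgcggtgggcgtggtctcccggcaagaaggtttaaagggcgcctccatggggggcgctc
ASNS: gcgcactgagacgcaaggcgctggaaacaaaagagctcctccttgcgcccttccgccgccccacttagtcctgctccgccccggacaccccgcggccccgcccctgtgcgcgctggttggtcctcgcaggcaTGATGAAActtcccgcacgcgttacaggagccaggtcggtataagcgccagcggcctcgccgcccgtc
ATF3: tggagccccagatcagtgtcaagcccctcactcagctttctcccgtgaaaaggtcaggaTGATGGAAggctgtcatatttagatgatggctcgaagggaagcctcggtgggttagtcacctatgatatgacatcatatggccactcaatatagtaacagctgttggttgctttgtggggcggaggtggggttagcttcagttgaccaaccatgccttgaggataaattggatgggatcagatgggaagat
CHAC1 and ASNS fell and ATF3 rose, as given above. Because the genes are shown for their opposite directions, this contrast cannot tell whether the motif goes with a direction. A link between the motif and the changes was not tested. A single RefSeq start per gene was searched, and other starts of these genes were not.

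The aminoacyl-tRNA synthetases, which charge tRNAs and many of which are ATF4 targets, fell in 24 of 36 cases and rose in none, with a median of -0.55 (-0.36 with total-sum scaling, where 21 fell and 1 rose). Of the 20 cytosolic enzymes 13 fell and of the 16 mitochondrial enzymes 11 fell. MARS1, for methionine, had 8117, 9767 and 5909 normalised counts at D1 and 22202, 23674 and 26988 at D0 (-1.64 ± 0.15, adjusted p = 7.25e-09). YARS1, for tyrosine, had 11101, 12501 and 12164 at D1 and 29204, 35434 and 36484 at D0 (-1.49 ± 0.10, adjusted p = 5.91e-11). In both enzymes the D1 libraries held less than the lowest D0 library. CARS1 (-1.23), AARS1 (-1.13), GARS1 (-1.09) and WARS1 (-1.04) fell as well, and 7 cytosolic enzymes, HARS1 and QARS1 among them, did not pass.

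Of 23 genes of the unfolded protein response of the ER, 3 rose, 3 fell and 17 did not pass, and with total-sum scaling 6 rose and 2 fell. Of the 14 chaperones and folding enzymes DNAJC3 alone passed, with a rise of 0.40, and HSPA5 (BiP) had a difference of -0.23. XBP1 (-1.23) and HERPUD1 (-0.73) fell, and EIF2AK3, the ER stress kinase PERK, rose by 0.73.

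Of 43 mitotic genes 22 fell and 2 rose, with a median of -0.34 (-0.14 with total-sum scaling, where 19 fell and 4 rose). Of 9 mitotic kinases 6 fell, and of 9 cyclins and cell cycle regulators 8 fell. The largest falls were those of PLK1, CDC20, HMMR, AURKA, CDC25B, CCNB2 and CCNB1. CDC20, the activator of the anaphase-promoting complex, had 13909, 16274 and 14850 at D1 and 41800, 44320 and 50064 at D0 (-1.60 ± 0.09, adjusted p = 4e-12). The cyclins B fell alike, with CCNB1 at 9535, 11472 and 8957 at D1 against 19189, 19149 and 21341 at D0 (-1.0), and CCNB2 at 3385, 3820 and 3752 at D1 against 7478, 7379 and 7872 at D0 (-1.05). HMMR, a spindle protein, had 538, 830 and 621 at D1 against 1486, 1574 and 1774 at D0 (-1.30), and AURKA had 3264, 3761 and 3648 at D1 against 7819, 8060 and 8574 at D0 (-1.20). All of these D1 values lay under the D0 values. Of 13 spindle genes 4 fell, and of 8 kinetochore genes 3 fell. KIF11, TPX2, CENPE and NDC80 were among those that did not pass, with differences from -0.21 to 0.07.

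The mitotic genes that rose were CDK1 and MKI67. CDK1, the catalytic partner of cyclin B, had 10835, 11270 and 13099 at D1 and 7022, 7523 and 7690 at D0 (0.66 ± 0.11, adjusted p = 6.61e-05). MKI67, the proliferation marker Ki-67, had 9614, 10108 and 11176 at D1 and 2955, 3391 and 3766 at D0 (1.62 ± 0.22, adjusted p = 3.01e-06). In both genes the lowest D1 library exceeded the highest D0 library, while at D2 the heavy mean of MKI67 was 1986. These rises are of the heavy fraction. In cytoplasmic RNA none of the 43 mitotic genes passed as higher and 11 were lower, with a highest difference of 0.50. By the test of the difference between the fractions, given below, none was higher in the heavy change, 3 were lower and 40 did not pass.

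Many mitotic promoters carry a CCAAT box, bound by NF-Y, and a cell cycle homology region (CHR), through which the DREAM complex represses them when p21 is high. The CCAAT box (CCAAT, both strands) was in 26 of 38 mitotic promoters (68.4%) and in 35.2% of all 10731. The CHR (TTTGAA or TTCGAA, both strands) was in 20 of 38 (52.6%) and in 9.40% of all. Among the 20 mitotic genes with a CHR 9 fell, 2 rose and 9 did not pass (median -0.27), and among the 18 without one 10 fell and none rose (median -0.45). Among the 26 with a CCAAT box 15 fell and 2 rose (median -0.45), and among the 12 without one 4 fell and none rose (median -0.12). In the promoters of genes that fell at least 2-fold the CCAAT box was in 45.5% and the CHR in 15.8%. Falls of any size over all 10731 genes differed little by motif. They took 29.4% of genes with a CHR and 28.1% without one, and 30.3% with a CCAAT box and 27.1% without one. The 200 bases before the start of 4 genes that fell (PLK1, CDC20, CCNB2, HMMR) and of the mitotic genes that rose (MKI67, CDK1) are shown because all 6 hold both motifs, in capitals, and where the matches touch or overlap the capitals run on. In GRCh38.p14 they lie at chr16:23678689-23678888 (plus strand) for PLK1, chr1:43358781-43358980 (plus strand) for CDC20, chr15:59104946-59105145 (plus strand) for CCNB2, chr5:163460432-163460631 (plus strand) for HMMR, chr10:128126424-128126623 (minus strand) for MKI67 and chr10:60778131-60778330 (plus strand) for CDK1.
PLK1: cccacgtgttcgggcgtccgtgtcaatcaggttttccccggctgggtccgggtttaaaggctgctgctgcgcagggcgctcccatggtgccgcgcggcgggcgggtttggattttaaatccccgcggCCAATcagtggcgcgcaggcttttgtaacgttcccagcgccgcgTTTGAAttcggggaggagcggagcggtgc
CDC20: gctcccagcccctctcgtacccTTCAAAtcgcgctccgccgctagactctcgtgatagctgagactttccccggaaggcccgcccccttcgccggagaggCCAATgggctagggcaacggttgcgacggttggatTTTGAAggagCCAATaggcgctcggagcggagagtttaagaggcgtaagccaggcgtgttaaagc
CCNB2: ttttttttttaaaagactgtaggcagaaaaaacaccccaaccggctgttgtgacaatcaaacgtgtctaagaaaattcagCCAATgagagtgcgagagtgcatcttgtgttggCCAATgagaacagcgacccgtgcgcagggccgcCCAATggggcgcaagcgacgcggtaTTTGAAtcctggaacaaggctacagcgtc
HMMR: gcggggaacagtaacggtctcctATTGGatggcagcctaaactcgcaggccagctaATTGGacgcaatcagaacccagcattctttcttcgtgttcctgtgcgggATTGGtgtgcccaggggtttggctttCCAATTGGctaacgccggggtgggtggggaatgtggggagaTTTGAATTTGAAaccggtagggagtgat
MKI67: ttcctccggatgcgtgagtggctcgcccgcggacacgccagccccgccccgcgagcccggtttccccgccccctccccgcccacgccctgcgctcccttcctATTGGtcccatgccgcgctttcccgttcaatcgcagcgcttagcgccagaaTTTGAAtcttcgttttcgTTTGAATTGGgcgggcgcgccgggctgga
CDK1: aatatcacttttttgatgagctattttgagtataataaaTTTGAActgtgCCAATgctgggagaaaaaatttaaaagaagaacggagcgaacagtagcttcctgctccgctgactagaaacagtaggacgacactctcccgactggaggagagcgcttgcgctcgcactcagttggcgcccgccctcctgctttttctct
PLK1, CCNB2 and MKI67 each hold a CHR from position -29 to -24 before the start, and MKI67 holds another from -47 to -42. In CDK1 the match in this window is farther out, from -161 to -156. A match is a description of letters and not evidence of binding.

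Of 44 genes of DNA replication 24 fell and 2 rose, with a median of -0.30 (-0.10 with total-sum scaling, where 14 fell and 8 rose). The subunits of the replicative helicase moved together: all 6 of MCM2 to MCM7 fell. MCM6 had 6413, 7573 and 6748 at D1 and 13247, 12642 and 14765 at D0 (-0.97), and MCM5 (-0.97), MCM7 (-0.95), MCM3 (-0.81), MCM2 (-0.77) and MCM4 (-0.48) fell with it. None of the 7 licensing and firing factors passed, CDC6, CDT1 and GMNN among them. Of 9 polymerase and primase subunits 6 fell, with POLD2 lowest at -0.73. PCNA, the sliding clamp and itself a p53-responsive gene, had 48839, 61773 and 64331 at D1 and 27590, 30963 and 33949 at D0 (0.91 ± 0.12, adjusted p = 2.2e-06). It rose in every letter, and GINS4 was the other gene that rose (0.30). Of 23 G1 cyclins, inhibitors and E2F factors 7 rose and 4 fell, while over all genes 20% rose and 26.8% fell. The median of -0.03 turned to 0.17 with total-sum scaling, where 9 rose and 3 fell, and to 0.01 with TMM scaling. CCNE2 had 1629, 1446 and 2076 at D1 against 886, 932 and 972 at D0 (0.87), the E2F repressor genes E2F7 and E2F8 rose by 1.35 and 0.56, RB1 rose by 0.72, and E2F4 fell by 0.81. CCND1 (cyclin D1) had a difference of 0.17 and overlapping groups.

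**Figure D3:**
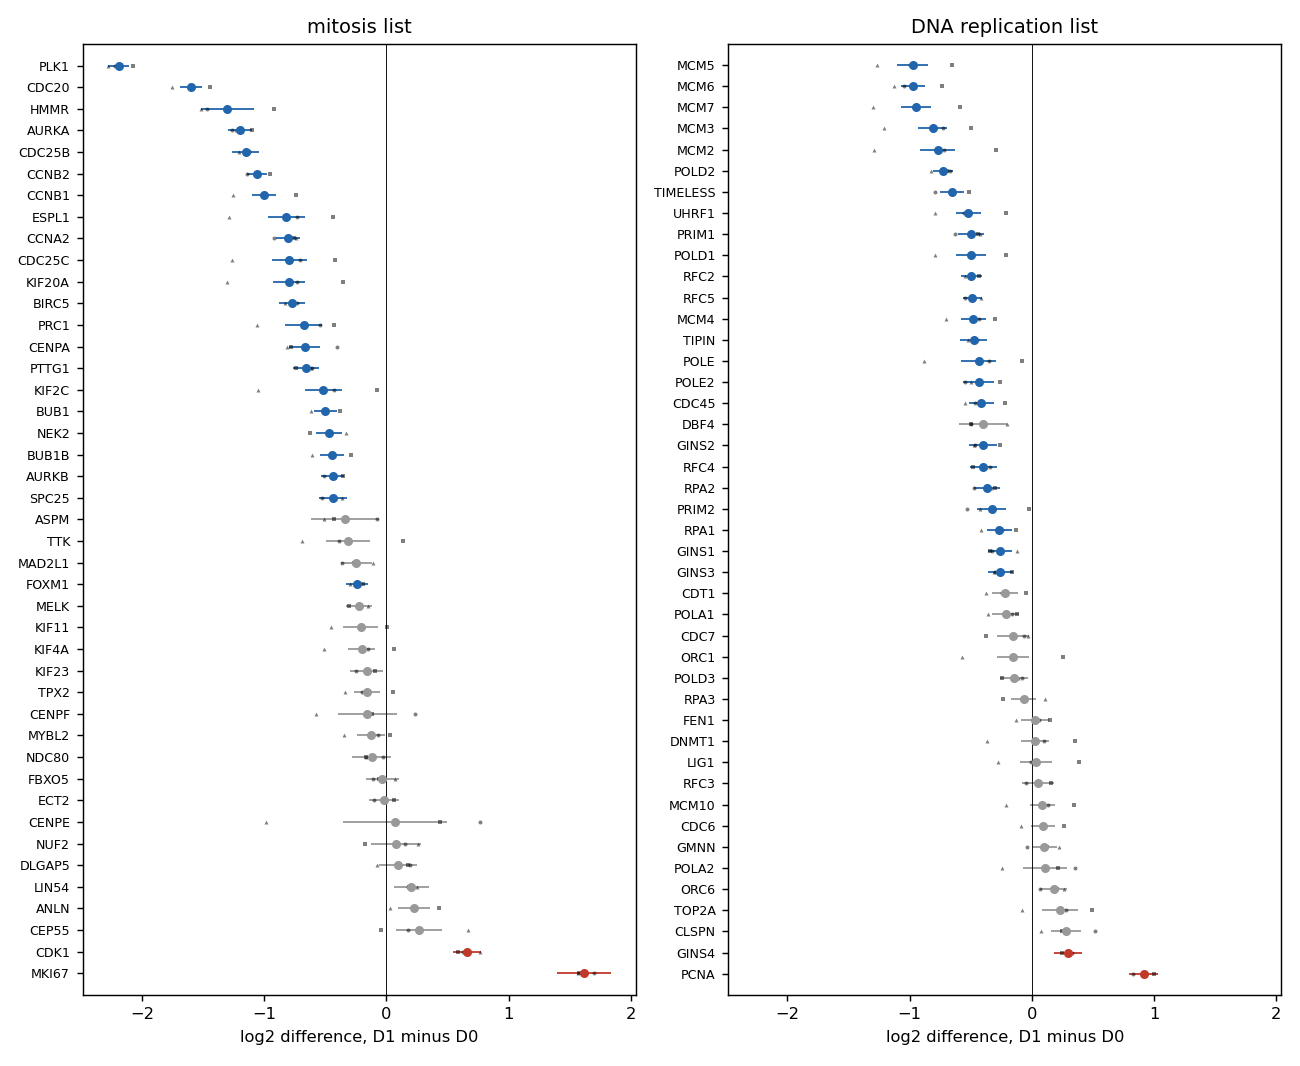
Log2 difference of heavy polysomal RNA, D1 minus D0 (horizontal axis), for each mitosis gene (left panel) and DNA replication gene (right panel). Large points are the fitted differences with their standard errors (blue, fell; red, rose; grey, did not pass) and small marks are the differences within letters A (circle), B (square) and C (triangle); PLK1 (-2.19) and CDC20 (-1.60) lie farthest below 0 and MKI67 (1.62) farthest above.

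Genes of the pathways on which 5-FU acts were lower more often than higher, a split that rests on the scaling. Of 25 genes of fluoropyrimidine, nucleotide and folate metabolism 15 fell and 6 rose (median -0.40; 9 fell and 8 rose with total-sum scaling, median -0.20). TYMS, thymidylate synthase and the main target of the drug, had 18510, 20269 and 18609 at D1 and 23352, 22829 and 24563 at D0 (-0.30 ± 0.09, adjusted p = 0.007). The groups did not overlap, but the call was lost with total-sum scaling (adjusted p = 0.323). The enzymes that keep uracil out of DNA fell further. DUT, which hydrolyses dUTP, had 2728, 3061 and 3567 at D1 and 5558, 5628 and 6040 at D0 (-0.89 ± 0.10, adjusted p = 4.66e-07). UNG, the uracil-DNA glycosylase, had 7380, 8951 and 8206 at D1 and 15207, 16580 and 17245 at D0 (-1.0), and both genes held at D1 less than their lowest D0 value.

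Of the ribonucleotide reductase genes RRM1 and RRM2B rose. RRM1 had 12543, 13318 and 11316 at D1 against 8343, 7817 and 9252 at D0 (0.55), and RRM2 had 43632, 46826 and 49559 at D1 against 36678, 37666 and 43416 at D0 (0.25, adjusted p = 0.0544). RRM2 did not pass, although its lowest D1 library was just above its highest D0 library. Among the enzymes that activate the drug, UCK2, a uridine kinase (-0.94), and UPP1, uridine phosphorylase (-0.62), fell, while CMPK1, the UMP/CMP kinase, had 4471, 4298 and 5130 at D1 against 2321, 2212 and 2617 at D0 (0.96). UMPS was at 0.00. In the folate cycle MTHFD1L (-1.22), SHMT2 (-0.71) and FPGS, which retains folates in the cell (-0.62), fell, and GGH, which releases them, rose by 0.57.

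Among 51 genes of the DNA damage checkpoint and repair, 12 rose and 18 fell, shares not far from those over all genes (20% and 26.8%). The median of -0.03 turned to 0.17 with total-sum scaling, where 20 rose and 12 fell. The checkpoint kinase genes CHEK1 (-0.73) and CHEK2 (-0.61) and the histone variant gene H2AX (-1.08) fell, whereas ATM rose by 0.43 and ATR had 0.10. RAD51C (0.77), FANCM (0.59) and BLM (0.52) rose, and FANCC (-0.97), FANCA (-0.84) and the base excision nuclease APEX1 (-0.91) fell.

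mRNAs of ribosomal proteins were lower in the heavy fraction. Of 79 cytosolic ribosomal proteins 48 fell and none rose, with a median of -0.31 against -0.06 over all genes (27 fell and 3 rose with total-sum scaling, median -0.11). The fall was shared by both subunits, with 29 of 47 large and 19 of 32 small subunit genes. RPL10A had 12184, 14909 and 13835 at D1 and 36553, 41319 and 42524 at D0 (-1.56 ± 0.09, adjusted p = 3.39e-12). RPL3 had 61522, 68730 and 57811 at D1 and 137450, 142480 and 140130 at D0 (-1.16), and RPLP0 did not pass (0.07). RPL10A and RPL3 were apart between the days in every library, but ribosomal protein genes have many processed pseudogenes and their read assignment is uncertain. Of 15 other mRNAs with a 5′ terminal oligopyrimidine tract, whose translation mTORC1 controls, 9 fell and none rose (7 fell and 2 rose with total-sum scaling). They included all 4 elongation factors: EEF1A1 had 370220, 372590 and 324790 at D1 and 590960, 618490 and 638780 at D0 (-0.79), and EEF1D (-0.61), EEF1B2 (-0.30) and EEF2 (-0.27) fell too.

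Of 45 ribosome biogenesis genes 26 fell and 1 rose (median -0.33; 15 fell and 6 rose with total-sum scaling, median -0.13). UBTF, the RNA polymerase I factor, had 6079, 6421 and 5341 at D1 against 14071, 13702 and 14093 at D0 (-1.23). MYC, which drives these genes, had 21551, 24033 and 20613 at D1 and 32804, 33549 and 36359 at D0 (-0.64 ± 0.11, adjusted p = 7.05e-05), and its antagonist MXD1 rose by 1.69. ODC1, a MYC target and the first enzyme of polyamine synthesis, fell by 1.06, and SAT1, which acetylates polyamines for export, had 7501, 7129 and 8208 at D1 against 2879, 2497 and 1936 at D0 (1.66). Of 42 initiation factors and mTOR regulators 8 rose and 11 fell, shares close to those over all genes, and with total-sum scaling 15 rose and 8 fell. EIF4EBP1 (-0.84), which holds the cap-binding factor eIF4E, EIF2B5 (-0.84) and RPTOR (-0.85), a subunit of mTORC1, fell. Of 22 heat shock and chaperonin genes 12 fell and 1 rose (median -0.31; 9 fell and 2 rose with total-sum scaling, median -0.11). Of the 14 heat shock genes among them 6 fell, 1 rose and 7 did not pass. HSPA8 had 73799, 82832 and 60632 at D1 against 178500, 160020 and 189730 at D0 (-1.29), and 6 of 8 subunits of the CCT chaperonin fell (-0.61 to -0.27). Of 11 SR-type splicing factors 8 fell (-0.82 to -0.51).

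**Figure D4:**
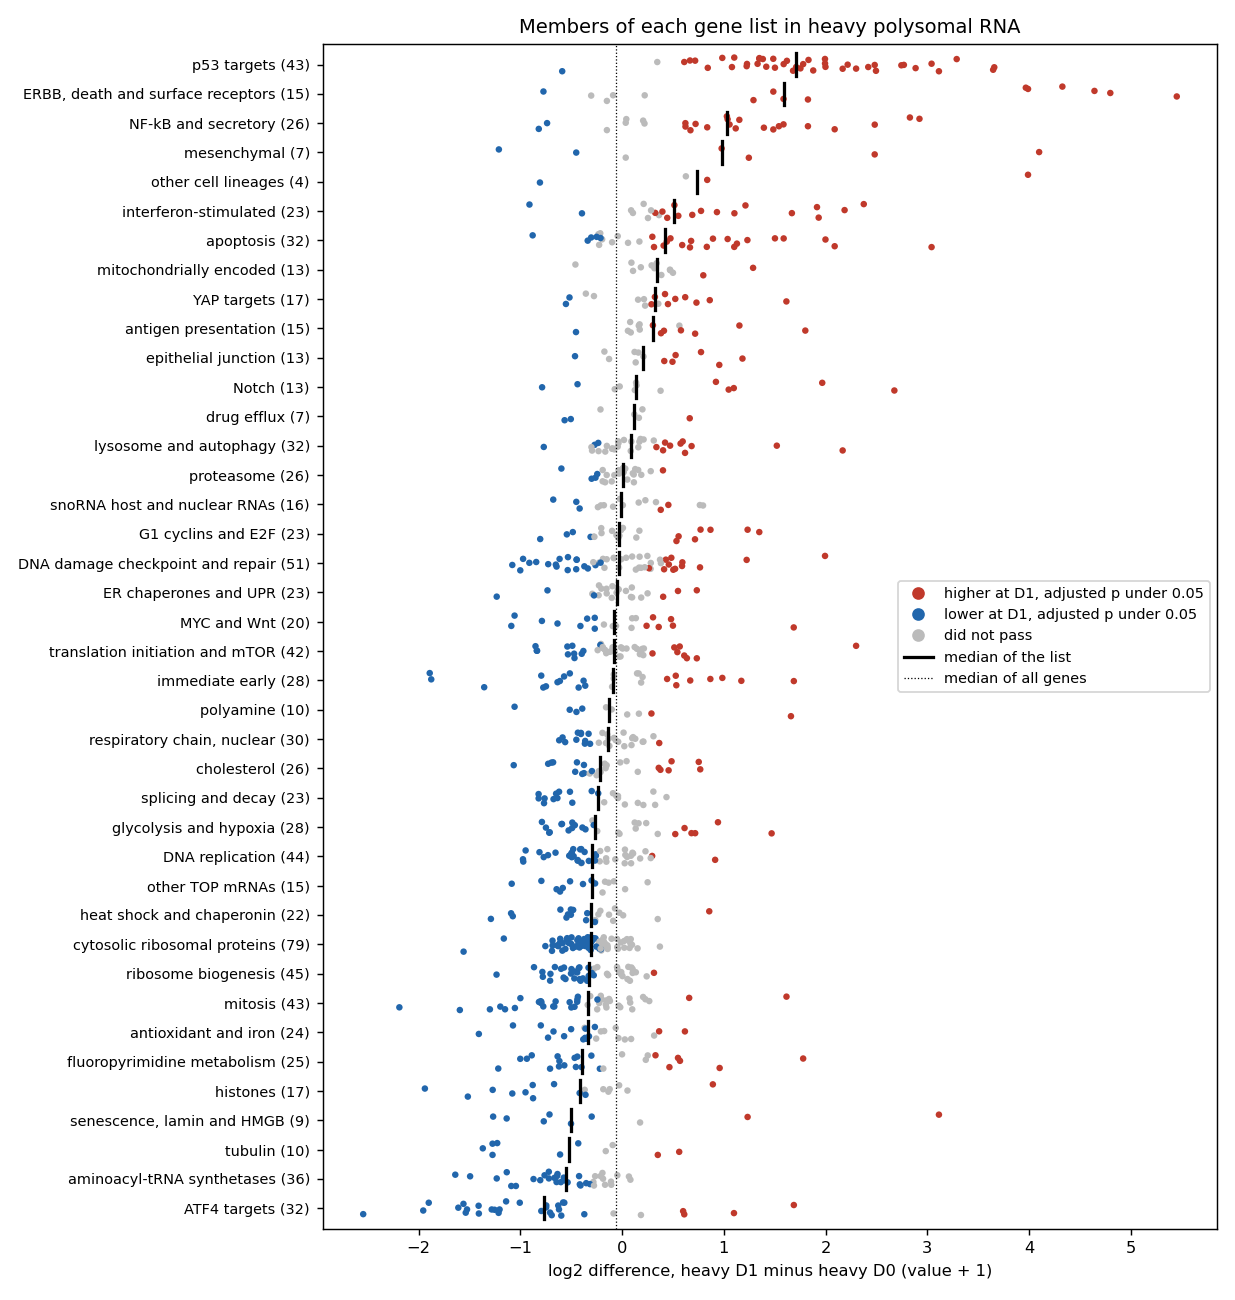
Log2 difference of heavy polysomal RNA, D1 minus D0, for each gene of the lists; points are genes (red, rose; blue, fell; grey, did not pass), bars are list medians and the dotted line at -0.06 is the median of all genes. The p53 list has the highest median of the 40 lists (1.71) and the ATF4 list the lowest (-0.77).

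Most of the listed secreted factors, NF-kB targets and interferon-stimulated genes rose. Of 26 listed NF-kB target and secretory genes 19 rose and 2 fell, with a median of 1.03. The set was chosen as 36 genes, and those with no entry included IL6, IL1A, IL1B, TNF, CXCL2 and CCL20. The cytokine IL11 had 171, 154 and 152 at D1 and 23.3, 16.7 and 25.4 at D0 (2.83), and the adhesion molecule ICAM1 had 949, 1219 and 817 at D1 and 210, 154 and 165 at D0 (2.48). Both were higher in every D1 library. The genes of the list that fell were NFKB1 (-0.74) and NFKBIA (-0.82), the inhibitor that NF-kB itself induces. CXCL8 and CXCL1 rose by 0.72 and 1.15, and LIF, CXCL3 and EREG did not pass. Of the EGFR ligands, HBEGF had 1336, 1595 and 1253 at D1 against 381, 403 and 388 at D0 (1.83), AREG 20931, 23206 and 17985 at D1 against 6886, 7210 and 6498 at D0 (1.59), and TGFA rose by 1.49. The receptor gene ERBB3 fell by 0.77, and EGFR and ERBB2 did not pass (0.22 and -0.30).

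Of 23 listed interferon-stimulated genes 15 rose and 2 fell, with a median of 0.51. The set was chosen as 34 genes, and those with no entry included OAS1, OAS2, MX2, RSAD2, IFI44 and IRF9. OASL had 847, 1198 and 992 at D1 and 202, 218 and 162 at D0 (2.38), the RNA sensor gene TLR3 189, 204 and 194 at D1 against 41.5, 46.1 and 39.1 at D0 (2.19), and IRF7 761, 996 and 879 at D1 against 206, 241 and 240 at D0 (1.93). ISG15, a ubiquitin-like modifier, had 8969, 10269 and 9228 at D1 and 3060, 3054 and 2830 at D0 (1.67). D1 was above D0 in all of these. STAT2 had a difference of 0.11 and did not pass, and BST2 (-0.91) and IFIT1 (-0.39) fell.

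Of 28 immediate-early genes 8 rose and 13 fell, and with total-sum scaling 10 rose and 9 fell. FOS had 6152, 5248 and 4445 at D1 and 19742, 19539 and 18418 at D0 (-1.88 ± 0.19, adjusted p = 3.62e-08). FOSB had 2097, 1313 and 1263 at D1 against 6013, 6111 and 4836 at D0 (-1.89), and EGR1 7874, 8841 and 9065 at D1 against 20862, 24248 and 20922 at D0 (-1.36). The D1 libraries held under the lowest D0 library in each. FOSL2, FOSL1 and JUND rose by 0.87, 0.53 and 0.44, and JUN and JUNB did not pass.

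Lamin and chromatin genes linked to senescence were partly lower. LMNB1, lamin B1, had 5862, 6303 and 4482 at D1 and 11470, 11407 and 13411 at D0 (-1.14), and LMNB2 fell by 1.27. HMGB2 (-0.71) and HMGB1 (-0.50) fell. LMNA, with 51175, 64164 and 33769 at D1 and 41367, 40173 and 46239 at D0, did not pass (0.18), and its D1 libraries lay on both sides of D0. CDKN2B, the inhibitor p15, rose by 1.23. Of 17 genes for histones and for the histone mRNA-binding protein SLBP, 10 fell and 1 rose, with H1-4 at 24.4, 31.9 and 11.9 at D1 against 102, 72.6 and 79.2 at D0 (-1.94), on low counts. The libraries are of polyadenylated RNA, so for the 9 replication-dependent histone genes among them, H1-4 included, only polyadenylated forms were measured. Of 13 Notch pathway genes 5 rose and 2 fell. HES2 had 3948, 4113 and 4193 at D1 against 706, 553 and 666 at D0 (2.68), DLL4 rose by 1.97 and NOTCH1 by 1.10, while HES1 fell by 0.44.

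The cytoplasmic libraries of the same days give the change in total cytoplasmic mRNA. There, 2850 genes (17.9%) passed, 1724 higher (10.8%) and 1126 lower (7.09%). With total-sum scaling 950 were higher and 1112 lower, and 1305, 1416 and 1585 genes passed without cytoplasmic D1 replicate B, D0 replicate B and D0 replicate C. The p53 set had 34 of 43 genes higher and none lower in the cytoplasm, the ATF4 set 5 higher and 13 lower of 32, and the ribosomal proteins none of 79 in either direction, at a median of 0.52. Cytoplasmic libraries deviated more from their group means (SD 0.24 to 0.41, against 0.18 to 0.23 in heavy libraries), so counts of calls do not compare the fractions. In the test of the difference given next, 1 ATF4 gene was higher, 1 was lower and 30 did not pass. Of the 79 ribosomal protein genes 9 were lower and 70 did not pass, while 3.37% of all genes were lower. The median difference of the ribosomal protein genes was -0.81, against -0.10 over all genes. Such medians rest on the scaling, since the median over all genes was 0.34 with total-sum scaling. The heavy change minus the cytoplasmic change, tested in 1 model over both kinds of library, passed for 661 genes (4.16%), 125 higher (0.787%) and 536 lower (3.37%). This count depends strongly on the setting: it was 2067 with the letters as a block, 44 with total-sum scaling (22 higher and 22 lower), 206 after centring within GC bins, and between 29 and 1037 with 1 library left out. The lowest came without cytoplasmic D1 replicate B, and 95, 133, 332, 113, 134, 101 and 239 genes passed without heavy D1 A, heavy D1 C, heavy D0 A, heavy D0 B, heavy D0 C, cytoplasmic D0 B and cytoplasmic D0 C. The cytoplasmic deviations followed GC content at r = -0.41 in D1 A, 0.44 in D1 B and -0.34 in D0 B, and the median of the difference fell over 4 equal bins of rising GC content, at 0.63, 0.12, -0.31 and -0.50. For the genes whose value after GC-bin centring is printed, it stands beside the difference.

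Tubulin mRNAs changed differently in the fractions. Of 10 tubulin genes 6 fell and 2 rose in the heavy fraction, with a median of -0.52, and their summed count was 410614 to 518275 at D1 and 873781 to 1045410 at D0. In the cytoplasm 4 rose and none fell, with a median of 0.43, and the difference between the changes passed for 8 of 10, all lower in the heavy fraction (median -1.04 against -0.10 over all genes). With total-sum scaling it passed for 2 of 10, after GC-bin centring for 4, and for 3 or 4 without heavy D1 A, heavy D1 C, heavy D0 B, heavy D0 C, cytoplasmic D1 B or cytoplasmic D0 B. TUBA1B, an alpha tubulin, had 104280, 142010 and 120690 in the heavy fraction at D1 and 289450, 306990 and 347050 at D0 (-1.37 ± 0.11, adjusted p = 1.74e-09), with every D1 library under every D0 library. Its cytoplasmic difference was 0.28 and the difference between the fractions was -1.65 (adjusted p = 0.000115), or -1.34 after GC-bin centring (adjusted p = 7.85e-05) and -1.21 with total-sum scaling (adjusted p = 0.0253). TUBA1A had -1.23 in the heavy fraction and 0.29 in the cytoplasm (difference -1.52, adjusted p = 0.000115, -1.35 after GC-bin centring and -1.08 with total-sum scaling, adjusted p = 0.0332), and TUBA1C had -1.27 and 0.22 (difference -1.50, adjusted p = 0.00259, and -1.33 after GC-bin centring), where the call was lost with total-sum scaling (adjusted p = 0.0646). These 3 genes passed with each single library left out. TUBB had 85859, 97913 and 73862 in the heavy fraction at D1 and 193320, 199110 and 228160 at D0 (-1.27), against -0.40 in the cytoplasm. Its difference of -0.87 was -0.63 after GC-bin centring (adjusted p = 0.0373), did not pass with total-sum scaling (adjusted p = 0.245), and did not pass without any one of the 6 libraries named above. TUBB6 and TUBA4A rose in the heavy fraction by 0.56 and 0.35. The alpha tubulin genes are close in sequence, so the split of reads among them is uncertain.

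In the other direction, VPS13C, a lipid transfer protein with a very long mRNA, had 997, 829 and 784 in the heavy fraction at D1 and 250, 224 and 228 at D0 (1.88 ± 0.12, adjusted p = 2.37e-11), against 0.14 in the cytoplasm. The difference of 1.74 passed with each single library left out (adjusted p = 0.00693 with all) and not after GC-bin centring (0.96, adjusted p = 0.0776). For p53 targets the difference passed in 2 of 43 genes, DDB2 (-0.78) and FDXR (-0.83), a share near the 4.16% over all genes. With total-sum scaling neither passed (adjusted p = 0.301 for DDB2 and 0.218 for FDXR), and after GC-bin centring DDB2 was at -0.54 (adjusted p = 0.0494) and FDXR at -0.38 (adjusted p = 0.138). Both also lost the call without heavy D1 A, heavy D1 C, heavy D0 B, heavy D0 C, cytoplasmic D1 B, cytoplasmic D0 B or cytoplasmic D0 C, and DDB2 without heavy D0 A.

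**Figure D5:**
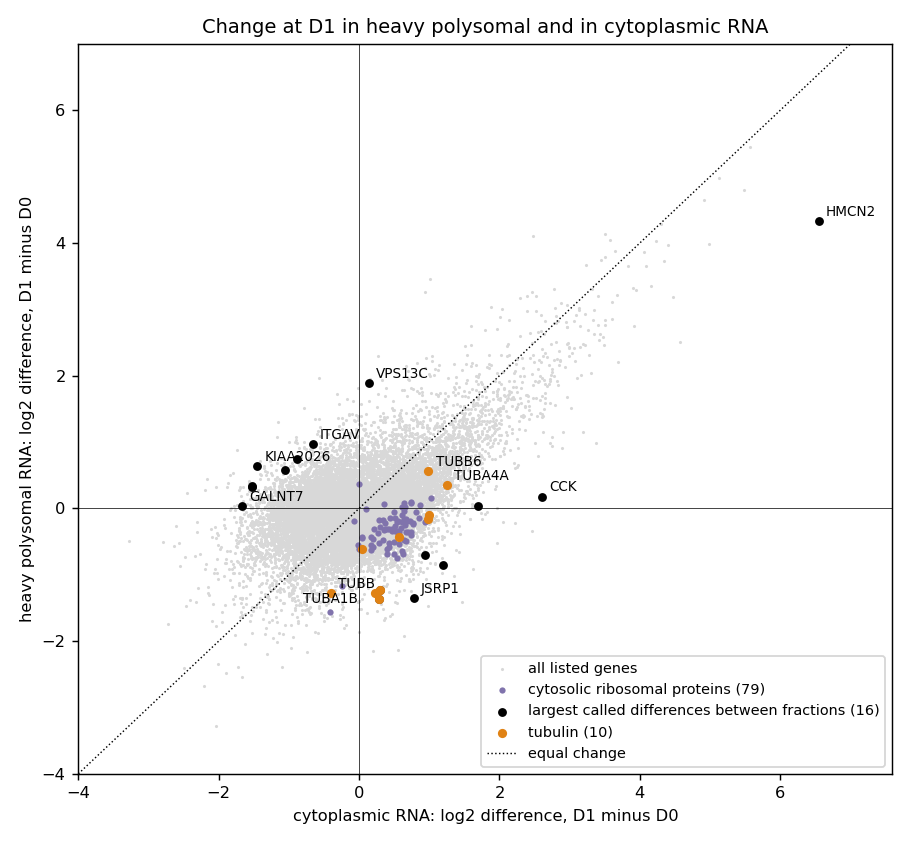
Log2 difference, D1 minus D0, in heavy polysomal RNA (vertical axis) against cytoplasmic RNA (horizontal axis); points are genes, with ribosomal proteins in violet, tubulins in orange, the 16 largest called differences between the fractions in black and equal change as the dotted line. The alpha tubulin genes lie below the diagonal (TUBA1B at -1.37 and 0.28) and VPS13C above it (1.88 and 0.14).

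At D2, the end of the exposure, the heavy means of several of these genes lay further from D0, given here as values with no test. CDKN1A was at 266220 normalised counts, against 10246 at D0, PLK1 at 1653, CDC20 at 4190, ATF4 at 6826 and MCM6 at 2627, each of the last 4 below its D1 libraries. MKI67, as given above, was at D2 below its D0 libraries. The overlap of exons on opposite strands (3864 genes) and copies of high identity leave the assignment of reads uncertain for such genes, since the strand setting of the counting is not given in the sources used here.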

How the data were processed

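Polyadenylated RNA of HCT116 cells was sequenced with a kit that marks the second strand by dUTP, per the labels' protocols. The tools named in the submitters' processing notes are STAR 2.7.9a on GRCh38, featureCounts (Subread 2.0.1), DESeq2 1.30.1, cutadapt 3.2 and FastQC 0.11.9. The deposited values are counts divided by a size factor per library, a normalised signal: multiplying each column by a constant gave whole reads for 100% of values (tolerance 0.01), which gives the depths in the report. The table listed no gene at 0 in a heavy D1 or D0 library. Another 18 columns, which match no sample here, were not used.

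Groups were heavy D1 and heavy D0 (3 libraries each), with cytoplasmic D1 and D0 beside them. The values were transformed as log2(value + 1), which understates changes of low genes, and tested with limma 3.58.1 (R 4.3.3, trended variance) over all 18 heavy libraries, so that all groups share the estimate of spread, with Benjamini-Hochberg adjustment over 15891 genes and a threshold of 0.05. The difference between the fractions was an interaction in 1 model of 36 libraries and 12 groups. Code was tested on simulated data. The labels call the letters batches, so libraries of a letter are paired by label, although the deviations of D1 and D0 libraries of a letter correlated at only 0.15, -0.03 and 0.01 across genes. The values printed come from the model without the letter, and the model with it as a block is an alternative. Alternatives were the letter as a block, pseudocounts of 0.1 and 10, a filter of at least 10 in 3 libraries, total-sum and TMM scaling, D0 and D1 libraries only, each replicate left out, and edgeR 4.0.16 (quasi-likelihood) and DESeq2 1.42.0 on the recovered reads. Centring within 20 bins of GC content was added after the data were seen.

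Genes were named by rule: the 12 largest rises and falls among coding genes whose mean reached 100 in a group and whose 3 letters shared a sign, the 6 most changed called members of each of 40 lists, all p53 and fluoropyrimidine genes, some fixed genes (some of the genes so chosen are not reported here), and the 8 largest differences between fractions in each direction. Further members of lists are named with their values, chosen after these were seen. The comparison, its members and the lists were chosen with earlier results of these data known. Symbols were found for 15856 of 15891 IDs, and 15799 were matched to GENCODE 29. Promoters are from RefSeq (GRCh38.p14), with a single start kept per gene and 10731 genes matched.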

Additional observations from a re-analysis of the deposited data

Results flagged for a closer look

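For 30 genes named here, the change in heavy polysomal RNA at D1 differed from the change in cytoplasmic RNA by the interaction test of limma (adjusted p under 0.05). Each value is the heavy change minus the cytoplasmic change on the log2 scale. Among the genes with the largest differences, the heavy change was higher for KIAA2026 (2.09), B3GNT5 (1.86), NBEA (1.85), VPS13C (1.74), GALNT7 (1.69), ASH1L (1.64), ITGAV (1.62) and ZNF462 (1.62). In B3GNT5, NBEA and GALNT7 the heavy change itself was small (0.33, 0.33 and 0.03) and the cytoplasmic change was negative (-1.53, -1.52 and -1.66). The heavy change was lower for CCK (-2.43), HMCN2 (-2.22), JSRP1 (-2.13), ZNF593OS (-2.05), CATSPER1 (-1.65) and ABHD14A (-1.64). HMCN2 rose in both fractions, by 4.33 in the heavy fraction and 6.55 in the cytoplasm.

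All 8 tubulin genes that passed were lower in the heavy change: TUBA1B (-1.65), TUBA1A (-1.52), TUBA1C (-1.50), TUBB2B (-1.14), TUBB2A (-1.09), TUBB4B (-1.0), TUBA4A (-0.90) and TUBB (-0.87). The abundant mRNAs of GAPDH (-1.47), ACTB (-0.88) and EEF1A1 (-0.67) were also lower, as were PLK1 (-0.88), TK1 (-0.93), FPGS (-0.89) and the p53 targets DDB2 (-0.78) and FDXR (-0.83).

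Of the 30 genes, 11 passed after centring within GC bins (B3GNT5, DDB2, EEF1A1, GAPDH, HMCN2, KIAA2026, TUBA1A, TUBA1B, TUBA1C, TUBB and ZNF462) and 4 with total-sum scaling (GAPDH, TUBA1A, TUBA1B and VPS13C). After GC-bin centring NBEA (adjusted p = 0.0619), GALNT7 (0.065) and ASH1L (0.0695) were among the 19 that lost the call. With every single library left out in turn, 6 kept it (GAPDH, HMCN2, TUBA1A, TUBA1B, TUBA1C and VPS13C). The causes of these differences were not tested.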

How the results depend on the processing

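For heavy D1 against D0, the count of 7444 genes stayed within 1.5 times under every alternative, from 6466 with a replicate left out (up to 7208) to 7858 after GC-bin centring. The genes behind the count were not all the same. With total-sum scaling 7237 genes passed, of which 5502 were among the 7444. edgeR on the recovered reads called 3696 higher and 3551 lower, and DESeq2 3560 higher and 3924 lower. Of 279 named genes with a call, 250 kept it in all alternatives run for them, 19 lost it with total-sum scaling, 20 with some replicate left out, and none turned its direction. With total-sum scaling 16 of the 40 lists had a median below 0, against 25 in the main analysis and 22 to 27 with a replicate left out. In the cytoplasm 2850 genes became 5493 with D0 and D1 libraries only and 1305 to 2288 with a replicate left out. The difference between the fractions (661 genes) became 2067 with the letters as a replicate block, 3790 with D0 and D1 libraries only, 434 with TMM scaling, 44 with total-sum scaling, 206 after GC-bin centring (added after the data were seen), and 29 to 1037 with a replicate left out; with total-sum scaling 22 were higher and 22 lower. Apart from this count the block moved no count by over 1.5 times, and of the named genes with a call it lost none. Causes were not tested. Both the 3 libraries a group and, for genes of few reads such as PURPL, the depth limit the precision, and these limits were not compared.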

Other observations

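Metabolic genes of the heavy fraction at D1 depended on the scaling. Of 28 glycolytic and hypoxia genes 13 fell and 6 rose, and with total-sum scaling 8 fell and 10 rose. The enzymes LDHA (-0.79), GAPDH (-0.72) and ENO1 (-0.60) fell, while the glucose transporters SLC2A1 and SLC2A3 rose by 0.61 and 0.94. Of 24 antioxidant and iron genes 13 fell and 2 rose (7 fell and 4 rose with total-sum scaling), with NQO1, the quinone reductase, at -0.80, and HMOX1, heme oxygenase, at 0.62. Of 26 cholesterol genes 10 fell and 6 rose, shares not far from those over all genes, and with total-sum scaling 5 fell and 7 rose. The regulators SREBF1 (-1.07) and SREBF2 (-0.70) fell.

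Among the few listed epithelial and mesenchymal genes more rose than fell, while over all genes 20% rose and 26.8% fell. Of 13 epithelial junction genes 6 rose and 1 fell, with KRT20, a keratin of mature colonocytes, at 97.6, 92.9 and 97.1 normalised counts at D1 against 48.6, 49.0 and 30.3 at D0 (1.18), and CDH1 at 0.78. Of 7 listed mesenchymal genes 4 rose and 2 fell, too few to describe the class. CDH2, ZEB1 and ZEB2, also chosen for this set, had no entry. VIM (vimentin) had 100, 170 and 86.1 at D1 against 259, 280 and 254 at D0 (-1.21), while ACTA2, also in the p53 set, rose by 2.48 and FN1 by 0.98. Lysosome and autophagy genes rose in 10 of 32 cases and fell in 3, against 20% and 26.8% over all genes, with the sialidase NEU1 at 1.52. The median of this list was 0.09, or -0.03 without replicate B. With total-sum scaling 16 of the 32 rose and 1 fell.

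Of the 13 mitochondrially encoded mRNAs MT-CO1 and MT-CO2 rose, with a list median of 0.34 that was between 0.05 and 0.80 with a letter left out. The number that rose was 1 without letter A or B, 9 without letter C and 5 with total-sum scaling. MT-CO2 lost its call without heavy D1 replicate B (adjusted p = 0.15) or heavy D0 replicate A (adjusted p = 0.104), and with all libraries the other mRNAs of the list did not pass. MT-CO1 had 363660, 497280 and 288420 at D1 against 129650, 149220 and 185520 at D0 (1.29). Mitochondria were pelleted before the gradient, per the labels' protocols, and whether these mRNAs sediment with cytosolic polysomes or with remaining mitochondria was not tested.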
